A study of Homo sapiens with 29 samples.

Results

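Genes for the pore-forming and auxiliary subunits of sodium, calcium and potassium channels were examined in senescent lung fibroblasts with and without SMARCA4. The members were the rows of the count table whose symbols named a sodium channel (SCN), potassium channel (KCN) or calcium channel (CACN) gene, with antisense genes left out. Of 28266 genes in the table, 135 had such a symbol, and 45 of them had at least 10 counts in at least 5 of the 18 libraries. Symbols alone chose the members, so the set also held potassium channels that are gated by calcium or by lipids and stretch, or that rectify inwardly, in addition to channels opened by voltage.

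The cells were IMR90 ER:RAS, human lung fibroblasts with a retroviral transgene in which oncogenic RAS is joined to the estrogen receptor, so that 4-hydroxytamoxifen (4OHT) switches RAS on and drives oncogene-induced senescence. Small interfering RNA (siRNA) was transfected the day before 4OHT or its solvent DMSO was added, and RNA was collected on day 7. The groups, of 6 libraries each, were DMSO_siNT (fusion switched off, non-targeting siRNA), 4OHT_siNT (senescent cells, non-targeting siRNA) and 4OHT_siSMARCA4 (senescent cells, siRNA to SMARCA4, which is an ATPase of SWI/SNF chromatin remodellers). By label all 3 groups carried the fusion, each used 2 siRNAs numbered 2 and 4 (siNT 2, siNT 4, siSMARCA4_2 and siSMARCA4_4), and growing cells with SMARCA4 knocked down were not analysed here. The labels name 1 cell line with 1 retroviral construct, and the transgene's level in 1 library stood apart, as given below. Whether libraries came from separate cultures was not stated, so the p-values measure the spread between these libraries, part of which may be technical.

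Voltage-gated channels open when the membrane depolarizes and let sodium, calcium or potassium pass. Sodium and high-voltage calcium channels are built from a large pore subunit with smaller partners that set trafficking and gating, whereas potassium channels assemble from several pore subunits, some of which are silent alone and only modify others. Fibroblasts are not known for firing action potentials, but their potassium channels set the resting membrane potential, and calcium entry feeds contraction, secretion and transcription.

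Counts per library, with sequencing lanes summed, ranged from 9657309 to 18039313, so that 1 count was worth 0.0561 to 0.119 CPM (counts scaled to library size, here with TMM factors). SMARCA4 itself was 301 ± 20.9 CPM (SD, n = 6) in 4OHT_siNT and 99.0 ± 27.6 in 4OHT_siSMARCA4, a log2 fold change of -1.61 ± 0.14 (SE, adjusted p = 1.3e-06). All 8 fibroblast markers checked exceeded a mean of 1 CPM in every group, and summed muscle markers were at most 1.43 CPM in any library. Of 4 epithelial markers, KRT5 and SFTPC were at 0 in every library, whereas EPCAM had a mean of 1.315 CPM in DMSO_siNT. Summed endothelial markers, led by VWF, were at most 5.78 CPM in any library. Summed immune markers, mostly CD68, ran from 44.95 to 74.94 CPM. Neuron markers, mostly SYT1, had summed levels of 14.4 to 22.7 CPM in growing cells, 15.9 to 19.8 CPM in senescent controls and 4.15 to 14.9 CPM after SMARCA4 knockdown, and their part in the results below was not tested. Among growing cells, the library with siRNA 4 and set name 2V (4-2V) stood apart: ESR1 and HRAS, the genes whose products the fusion joins, were 29.5 and 436 CPM there against group means of 980 and 2110 CPM, and it gave the lowest level of its group for 21 of the 45 channel genes and the highest for 9. Library DMSO_siNT 2-2VM gave the highest level of its group for 21 of the 45 and the lowest for 1, and it held the growing maxima of KCNG1 (39.1 CPM) and SCN4B (6.71 CPM). Across all genes the biological coefficient of variation came to 23.3%, and to 15.3% with library 4-2V left out. All 4OHT_siNT libraries had set names ending in VM, DMSO_siNT had 3 V and 3 VM sets, 4OHT_siSMARCA4 had 3 V sets, 2 VM sets and 1 library whose column gave a set that no matching title has, and the meaning of V and VM was not stated. Within 4OHT_siSMARCA4, KCNC4 was 5.83, 7.46 and 9.65 CPM in V sets, 2.79 and 4.84 CPM in VM sets and 3.15 CPM in the library without a matching set title. Its log2 fold change between knockdown and growing cells was 1.09 over all libraries (adjusted p = 0.0022) and 0.29 within VM sets (adjusted p = 0.369).

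Few channel genes were abundant. The 45 genes together summed to 641 ± 81.4 CPM in DMSO_siNT, 546 ± 18.96 in 4OHT_siNT and 553 ± 27.2 in 4OHT_siSMARCA4. By role, 4 of 10 sodium channel pores were reported, 3 of 4 sodium channel beta subunits, 3 of 10 calcium channel alpha1 pores, 3 of 4 alpha2delta, 3 of 4 beta and 2 of 8 gamma subunits. Among potassium channel genes, 11 of 40 voltage-gated pores, 4 of 12 auxiliary subunits, 4 of 12 genes of the calcium- or sodium-activated families, 5 of 16 inward rectifiers and 3 of 15 tandem-pore genes were reported. The 90 genes below the limit reached at most 46 counts in any library (SCN7A), and 11 of them had 0 counts in all. KCNH2 lay just inside the limit, with 10 counts in 5 libraries and a maximum of 61, and CACNG4 just outside, with 4 libraries and a maximum of 28. Of the reported genes, 2 (KCNH2 and KCNK2) passed through DMSO_siNT alone, where both were highest. KCNJ8 came close to this, with 47 to 124 counts in DMSO_siNT libraries, at most 10 in 4OHT_siNT and at most 4 in 4OHT_siSMARCA4. SCN3B and CACNA2D4 had fewer than 10 counts in every DMSO_siNT library, and so passed through the 4OHT groups. KCNH2 was removed from the tests by the low-count filter and was 0.218, 1.31 and 4.35 CPM (lowest, median, highest) in DMSO_siNT and 0 to 0.445 CPM in 4OHT_siNT, which left 44 genes to test.

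Exon lengths were merged over all annotated transcripts of a gene, such as 2292 bases for KCNF1 and 39437 for KCNMA1. The order per kilobase therefore depends on annotation as well as on level. Per kilobase of exon, the leading channel gene of DMSO_siNT was SCN9A at 9.80 CPM per kb, followed by KCNF1 (7.59), CACNA2D1 (7.38) and CACNB3 (5.27). In 4OHT_siNT it was KCNG1 at 19.2 CPM per kb, ahead of CACNA2D1 (7.55) and CACNB3 (5.94). KCNG1 led in 4OHT_siSMARCA4 as well, at 26.8 CPM per kb. KCNF1 and KCNG1 both encode electrically silent pore subunits that act only when assembled with other voltage-gated potassium channels.

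**Figure D1:**
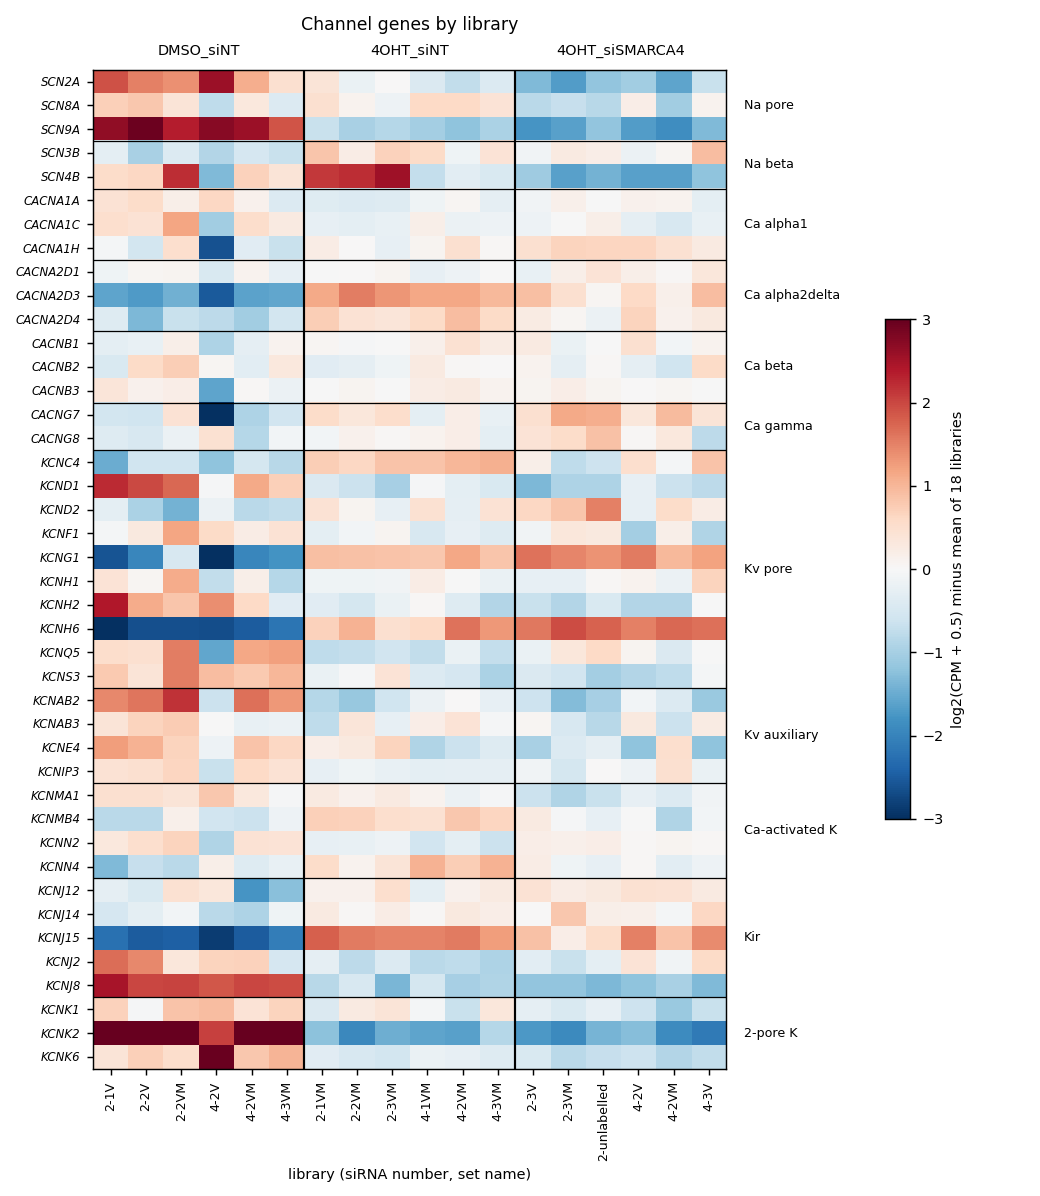
Level of 42 of the 45 channel genes in each of the 18 libraries, as log2(CPM + 0.5) minus the mean over libraries. Rows are genes ordered by role, columns are libraries named by siRNA number and set, and colours saturate at 3 in either direction; SCN9A, KCNK2 and KCNJ8 are high only in the 6 DMSO_siNT columns, whereas CACNA2D3, KCNH6 and KCNJ15 are low there, and column 4-2V of DMSO_siNT departs from its group in many rows.

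The first comparison, 4OHT_siNT against DMSO_siNT, asked which channel genes differed between senescent and growing cells. Of the genes tested, 3 of 4 sodium channel pores and the tandem-pore potassium channel genes KCNK1 and KCNK6 fell, 2 of 3 alpha2delta calcium channel genes rose, and voltage-gated potassium channel pores moved both ways. Of 44 genes tested, 12 rose and 18 fell (edgeR quasi-likelihood test, adjusted p under 0.05), so 30 were called against a background of 52.8% of all 13136 genes tested. The background was 23.9% for rises and 28.9% for falls, and the corresponding shares of channel genes were 27.3% and 40.9%. The changes were also large: 47.7% of the channel genes were called and moved by over 2-fold, against 21.5% of all genes, and the median absolute log2 fold change was 0.88 against 0.46. These counts, shares and medians include KCNK2, which passed the limit on counts only through the group where it is high. Without it 12 rose and 17 fell of 43, and the shares and medians were not computed again. Some other genes, among them KCNJ8, SCN3B and CACNA2D4, also met the limit through the groups where they are high. They are included in these counts, shares and medians. The median signed change was -0.15 for channel genes and -0.05 for all genes. Because these are bulk samples, fewer cells expressing a gene and less RNA per cell cannot be told apart.

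Tandem-pore potassium channel genes encode background channels that hold the membrane near its resting potential, and KCNK1 and KCNK6 fell. KCNK2, a stretch- and lipid-sensitive channel of this family, was 8.61, 21.4 and 29.99 CPM (lowest, median, highest) in DMSO_siNT and 0.0692, 0.259 and 0.703 CPM in 4OHT_siNT. Every growing library was above every senescent one, and the log2 difference was -5.98 ± 0.40 (63.0-fold lower). Since KCNK2 reached the limit on counts in growing libraries alone, this value is given as a description. KCNK6 was 11.04, 14.3 and 68.1 CPM in DMSO_siNT and 5.47, 6.29 and 7.12 CPM in 4OHT_siNT, a log2 fold change of -1.84 ± 0.36. The value of 68.1 came from library 4-2V, and without it the change of KCNK6 was -1.12 and still called (adjusted p = 2.52e-07). KCNK1 fell by 0.82 ± 0.31 on the log2 scale with overlapping groups.

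Inward rectifiers, which pass potassium near the resting potential, moved in both directions. KCNJ8, the pore subunit of ATP-sensitive potassium channels in vascular and stromal cells, was 5.62, 6.18 and 8.84 CPM in DMSO_siNT and 0.148, 0.414 and 0.692 CPM in 4OHT_siNT. Again no library overlapped between groups, and the log2 difference was -3.84 ± 0.25 (14.3-fold lower). The senescent libraries had at most 10 counts of KCNJ8. It met the limit on counts through the growing group, so these values are given as a description. KCNJ15 went the other way, from 0.478, 0.766 and 1.17 CPM to 16.3, 19.8 and 23.9 CPM, a log2 fold change of 4.55 ± 0.24 (23.5-fold higher, adjusted p = 1.59e-11), with all senescent libraries above all growing ones. KCNJ2, a strong rectifier that stabilizes the resting potential, fell by 1.66 ± 0.32, KCNJ14 rose by 0.91 ± 0.28, and KCNJ12, which shares near-identical sequence with KCNJ18 so that its reads are uncertain, was not called (0.68 ± 0.46).

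The proximal promoters of 4 of the genes with the largest changes are shown so that their base composition and motifs can be read beside these values. Each is the RefSeq sequence on GRCh38.p14 from 250 bases before to 50 bases after 1 annotated start. It is written 5′ to 3′ on the strand of the gene. Where a gene had more than 1 start listed, only the first was used, and the start in use in these cells was not determined. The KCNJ15 window lies inside the gene, which is annotated from base 38155549. Capitals mark matches, on either strand, to the GC box (GGGCGG) or to the AP-1 motif (TGANTCA). KCNK2 and SCN9A were lower in senescence, and KCNJ15 and KCNH6 higher.
KCNK2 promoter, chr1:215005292-215005591, plus strand: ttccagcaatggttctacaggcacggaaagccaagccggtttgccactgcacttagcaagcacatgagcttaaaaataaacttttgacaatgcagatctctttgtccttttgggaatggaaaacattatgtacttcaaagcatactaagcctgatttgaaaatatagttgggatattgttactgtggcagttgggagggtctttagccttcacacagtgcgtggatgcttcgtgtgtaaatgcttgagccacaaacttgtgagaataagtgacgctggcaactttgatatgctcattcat
SCN9A promoter, chr2:166375895-166376194, minus strand: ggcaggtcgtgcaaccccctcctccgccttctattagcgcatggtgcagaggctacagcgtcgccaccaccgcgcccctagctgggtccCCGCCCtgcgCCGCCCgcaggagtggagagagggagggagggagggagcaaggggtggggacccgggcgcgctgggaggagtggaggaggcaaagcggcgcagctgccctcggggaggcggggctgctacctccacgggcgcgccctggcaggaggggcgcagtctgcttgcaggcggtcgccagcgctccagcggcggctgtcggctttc
KCNJ15 promoter, chr21:38272258-38272557, plus strand: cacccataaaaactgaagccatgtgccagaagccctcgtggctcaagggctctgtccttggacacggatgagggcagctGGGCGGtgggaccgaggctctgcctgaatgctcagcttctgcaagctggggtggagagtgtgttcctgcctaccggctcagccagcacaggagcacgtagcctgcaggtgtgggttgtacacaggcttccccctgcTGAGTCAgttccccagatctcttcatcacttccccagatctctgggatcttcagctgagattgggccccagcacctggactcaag
KCNH6 promoter, chr17:63523108-63523407, plus strand: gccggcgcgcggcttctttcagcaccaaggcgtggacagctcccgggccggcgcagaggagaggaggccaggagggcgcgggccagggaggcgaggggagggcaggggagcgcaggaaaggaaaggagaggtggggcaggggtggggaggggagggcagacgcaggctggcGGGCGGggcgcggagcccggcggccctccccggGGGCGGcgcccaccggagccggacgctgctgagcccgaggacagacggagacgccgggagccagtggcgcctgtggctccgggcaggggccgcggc
Promoters of 32 of the 45 genes matched the RefSeq table, which held 35116 in all. The GC box occurred in 26 of the 32 (81.2%, against 45.0% of all promoters), and their median GC content was 66.2% against 58.7%. The 32 had passed the limit on counts and gave 1 start each, whereas the 35116 held every listed start with no such limit. These shares are therefore from unlike sets. KCNK2, at 42.0% GC, held neither motif, whereas SCN9A held 2 GC boxes. AP-1 matched only KCNJ15 (first base at position -35 from the start) among the 32, against 7.71% of all promoters. TATAAA matched KCNJ14 and KCNK1 (11.53% of all promoters), the E-box CACGTG matched KCND2 and KCNN4 (7.26%), and the core of the RE1 motif bound by REST matched none (0.0513%). A match describes the letters in this window and nothing about binding.

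Of 10 voltage-gated potassium channel pores tested, 5 rose, 4 fell and 1 (KCNH1) was not called. KCNH6, an ether-a-go-go related channel, was 0.142, 0.497 and 0.874 CPM in DMSO_siNT and 8.13, 10.96 and 18.7 CPM in 4OHT_siNT. It rose by 4.53 ± 0.28 on the log2 scale (23.1-fold, adjusted p = 9.09e-11) with no overlap. KCNC4, a fast-activating channel, rose from 1.496, 2.92 and 3.36 CPM to 8.10, 9.63 and 11.2 CPM without overlap, a log2 fold change of 1.86 ± 0.27. The silent subunit KCNG1 was 1.43, 13.9 and 39.1 CPM in growing cells and 96.8, 100.6 and 125 CPM in senescent cells. Its log2 fold change was 2.74 ± 0.40 (adjusted p = 9.72e-06), and the lowest growing value, 1.43 CPM, was that of library 4-2V. KCND2, which carries transient A-type current, rose by 1.28 ± 0.39. Its relative KCND1 fell: the levels were 1.32, 4.65 and 8.34 CPM in DMSO_siNT and 0.443, 0.867 and 1.34 CPM in 4OHT_siNT, and the log2 fold change was -2.44 ± 0.39 (adjusted p = 2.96e-05). The lowest growing library, 4-2V, lay within the senescent range, and the others lay above it. KCNQ5 fell by 1.97 ± 0.43, KCNS3 by 1.43 ± 0.29 and KCNF1 by 0.75 ± 0.24 on the log2 scale.

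Of 4 potassium channel auxiliary genes, 3 fell and none rose. KCNAB2, a cytoplasmic beta subunit of voltage-gated potassium channels, was 1.79, 9.74 and 15.5 CPM in DMSO_siNT and 1.11, 2.17 and 3.07 CPM in 4OHT_siNT, a log2 fold change of -2.15 ± 0.37 (adjusted p = 7.16e-05). The lowest growing value, again of library 4-2V, lay among the senescent values. KCNE4 fell by 0.85 ± 0.33 and KCNIP3 by 0.73 ± 0.22, whereas KCNAB3 was not called (-0.36 ± 0.37). Among calcium-activated potassium channel genes, KCNN4, an intermediate-conductance channel known in proliferating and immune cells, rose by 1.53 ± 0.29 and KCNMB4, a beta subunit of the large-conductance BK channel, by 1.27 ± 0.24, KCNN2 fell by 0.69 ± 0.18, and the BK pore KCNMA1 was not called (-0.33 ± 0.14, adjusted p = 0.0617).

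**Figure D2:**
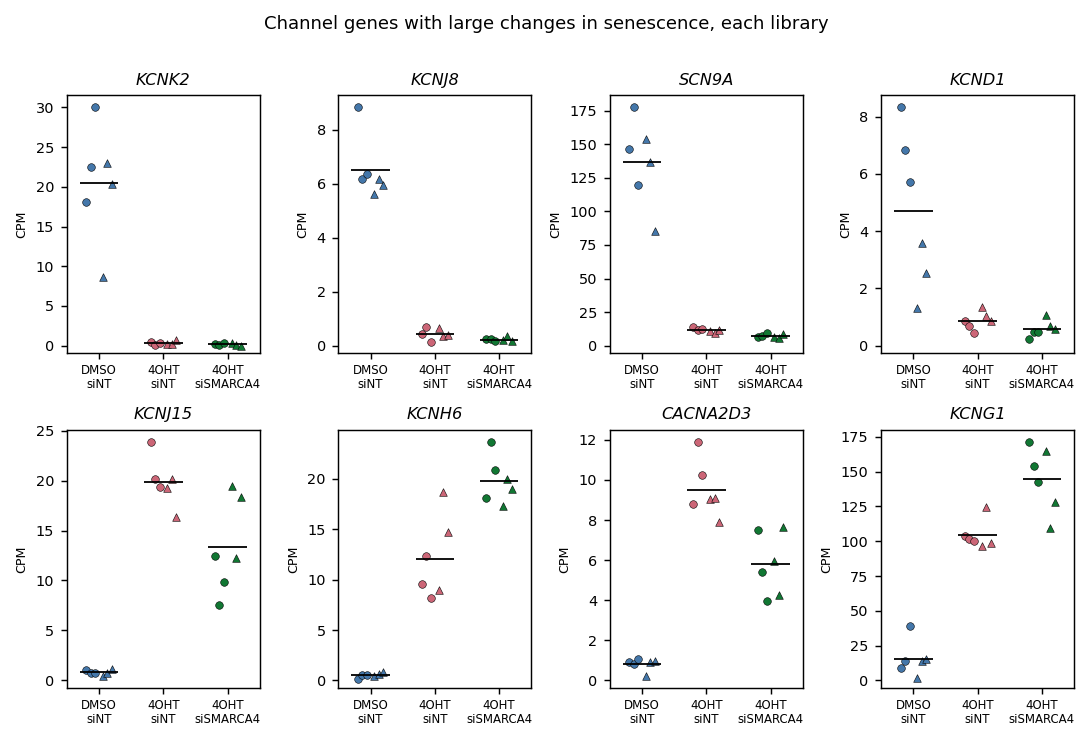
Level in CPM of 8 channel genes in each library of the 3 groups, with circles for siRNA 2, triangles for siRNA 4 and a bar at the mean of 6 libraries. KCNK2, KCNJ8, SCN9A and KCND1 (upper row) have means of 20.4, 6.52, 137 and 4.72 CPM in DMSO_siNT and 0.322, 0.446, 11.7 and 0.871 CPM in 4OHT_siNT, and KCNJ15, KCNH6, CACNA2D3 and KCNG1 (lower row) are below every 4OHT library in all 6 DMSO_siNT libraries.

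Sodium channel pores fell where they were called. SCN9A, a pore best known from pain-sensing neurons, was 85.3, 142 and 178 CPM in DMSO_siNT and 9.55, 11.49 and 14.2 CPM in 4OHT_siNT, without overlap. Its log2 fold change was -3.55 ± 0.17 (11.7-fold lower, adjusted p = 4.31e-12). Of its exon bases, 11.4% overlap the antisense gene SCN1A-AS1, and whether counting used strand was not given in the sources used here. SCN2A, a pore of central neurons, fell by 1.94 ± 0.31, and SCN8A was not called (0.08 ± 0.27). Among the beta subunits, which modulate gating and adhere to neighbouring cells, SCN3B was 0.0823, 0.258 and 0.427 CPM in growing cells and 0.546, 1.10 and 1.53 CPM in senescent cells. It was 2.00 ± 0.38 log2 units higher in senescent cells with no overlap, although from a few counts per library. No growing library of SCN3B reached 10 counts. It met the limit through the 4OHT groups alone, so this value is given as a description. SCN4B was not called (0.69 ± 0.67).

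Calcium channel genes rose only among the alpha2delta subunits, extracellular partners that carry the pore to the cell surface and bind gabapentin in the case of CACNA2D1. CACNA2D3 was 0.239, 0.911 and 1.07 CPM in DMSO_siNT and 7.89, 9.06 and 11.9 CPM in 4OHT_siNT, with all senescent libraries higher. The log2 fold change was 3.48 ± 0.24 (11.2-fold, adjusted p = 3.76e-10). CACNA2D4 rose from 0.0823, 0.394 and 0.641 CPM to 1.40, 1.71 and 2.32 CPM (2.20 ± 0.31), also without overlap, whereas the abundant CACNA2D1 stayed at 67.6 ± 10.3 and 69.2 ± 5.59 CPM (SD, n = 6; log2 fold change 0.03 ± 0.12, adjusted p = 0.83). No growing library of CACNA2D4 reached 10 counts. It met the limit through the 4OHT groups alone, so its change is given as a description. Of the alpha1 pores, CACNA1A, the P/Q-type pore, was 18.6, 31.0 and 38.2 CPM in DMSO_siNT and 18.6, 19.9 and 26 CPM in 4OHT_siNT. It fell by 0.53 ± 0.15 with overlapping groups, and the call was lost within VM sets and with siRNA 4 alone (largest adjusted p over alternatives 0.304). The L-type pore CACNA1C fell by 0.64 ± 0.24, a call lost in 4 of 9 alternative settings and without any 1 of 8 libraries (adjusted p 0.033, up to 0.749). The T-type pore CACNA1H and all 5 beta and gamma subunits were not called, although CACNG7 was called as higher without library 4-2V (0.61, adjusted p = 0.0307).

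Levels did not overlap between DMSO_siNT and 4OHT_siNT for 15 of the 45 genes, 34.1% of the 44 tested beside 33.8% of all genes tested (52.8% of all genes were called). The 10 higher included CACNA2D3, CACNA2D4, KCNC4, KCNG1, KCNH6, KCNJ14, KCNJ15, KCNMB4 and SCN3B, and the 5 lower were KCNJ8, KCNK2, KCNK6, SCN2A and SCN9A. Without library 4-2V the numbers higher and lower became 12 and 12 (54.5% beside 41.2% of all genes), while 31 genes were called, 13 higher and 18 lower. KCNK2 is in all these counts and shares as a description only, because it reached the limit on counts through the growing group alone. The same holds for SCN3B and CACNA2D4, which reached it through the 4OHT groups. It also holds for KCNJ8, with at most 10 counts in any 4OHT library. Within VM sets 28 were called, and without library 2-2VM 30, split into 15 higher and 15 lower. Calls that more than 1 alternative or left-out library ended included those of CACNA1A, CACNA1C, KCND2, KCNE4, KCNF1, KCNIP3, KCNJ14 and KCNK1, and that of KCNK6 was lost with siRNA 2 alone (adjusted p = 0.0517).

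**Figure D3:**
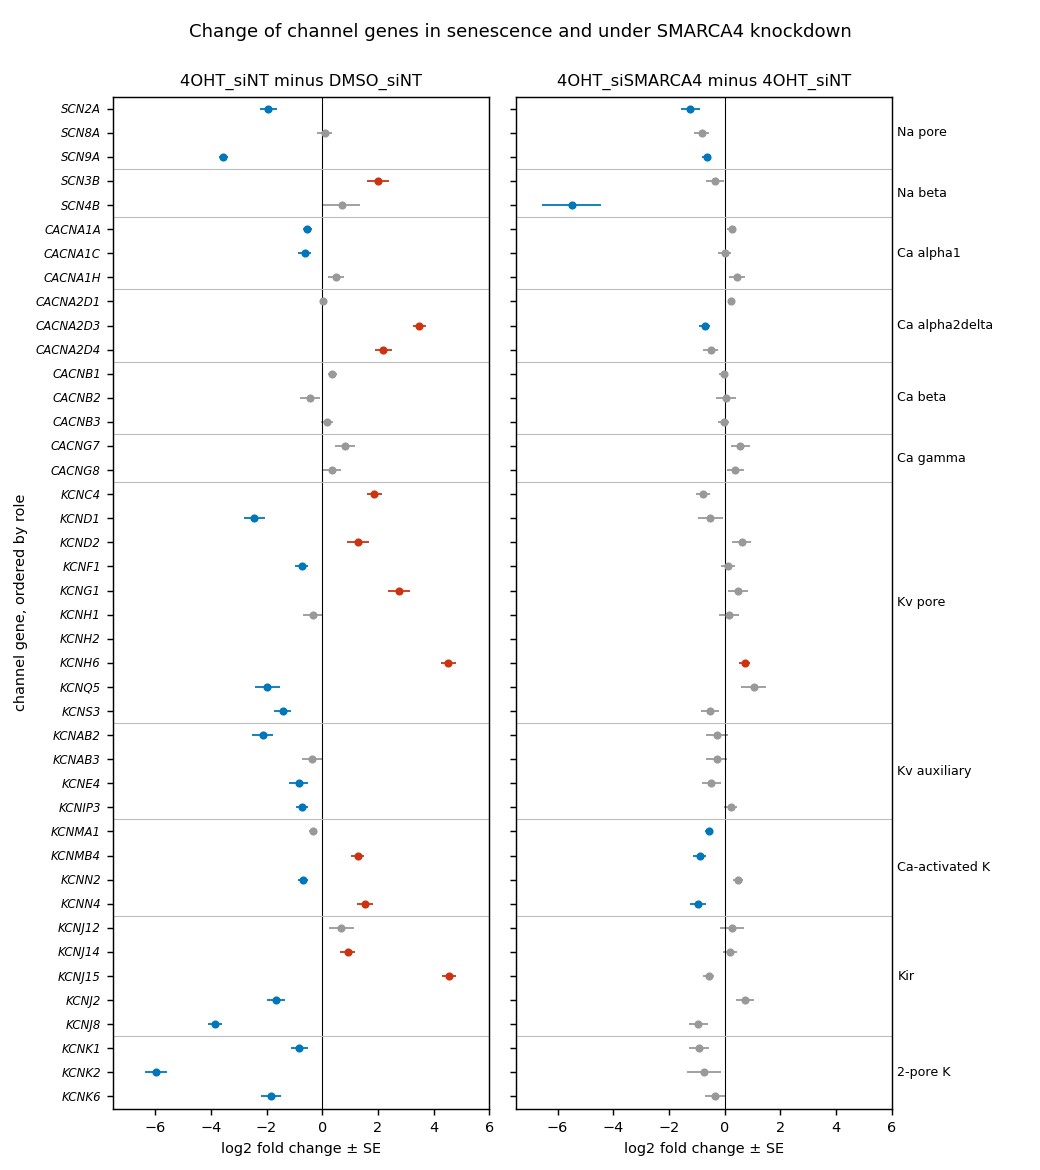
log2 fold change with its standard error for 41 of the 44 channel genes tested, in senescence (left) and under SMARCA4 knockdown (right), from the same fit; red marks genes called higher, blue genes called lower and grey genes not called at an adjusted p of 0.05. Of the genes plotted, 11 are higher and 17 lower in senescence, from -5.98 for KCNK2 to 4.55 for KCNJ15, whereas under knockdown 1 is higher and 7 are lower, and KCNH2 has no value because it was not tested.

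The next comparison, 4OHT_siSMARCA4 against 4OHT_siNT, asked which channel genes differed when SMARCA4 was knocked down in senescent cells. KCNH6 rose, and 8 genes fell, among them the sodium channel genes SCN2A, SCN4B and SCN9A, the calcium-activated potassium channel genes KCNMA1, KCNMB4 and KCNN4, and CACNA2D3. These 9 of 44 genes compare with 10.6% of all genes called, 4.99% higher and 5.65% lower; for the channel genes the shares were 20.5%, 2.27% and 18.2%. The median log2 fold change was -0.29 for channel genes and 0.01 for all genes. No call was made among 3 alpha1, 3 beta and 2 gamma subunits of calcium channels, 4 potassium channel auxiliary genes, 5 inward rectifiers and 3 tandem-pore genes, where edgeR gave 4 genes an unadjusted p under 0.05 and DESeq2 called KCNJ15. The count moved with the libraries in the fit: 16 genes were called without the DMSO_siNT library 4-2V (3 higher, 13 lower), 14 within VM sets (3 higher, 11 lower), 18 with the growing group left out of the fit (7 higher, 11 lower), and 5 without either of the 4OHT_siSMARCA4 libraries 2-3VM or 4-2VM. The share of all genes called moved with it, to 24.6%, 21.0%, 26.9%, 6.99% and 7.12%. With siRNAs of number 2 alone 7 were called (7.67% of all genes), and with number 4 alone only KCNN4 (2.71%).

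SCN4B, a sodium channel beta subunit linked to the pore by a disulfide bond, had the largest change, and its control libraries separated by control siRNA, a difference that edgeR did not call (adjusted p = 0.056). With siNT 2 the senescent libraries had 6.26, 6.64 and 8.50 CPM, and with siNT 4 they had 0.445, 0.750 and 0.62 CPM. With SMARCA4 knocked down all 6 libraries lay between 0 and 0.236 CPM, below every control library. Counts summed to 322 in 4OHT_siNT and 6 in 4OHT_siSMARCA4, which is a ratio of levels of 51.4 (95% interval 23.4 to 141, counting error only). Against siNT 2 alone the ratio was 93.9 (42.6 to 258) and against siNT 4 alone 8.06 (3.23 to 24.01). The fitted log2 fold change was -5.50 ± 1.05 (adjusted p = 0.00221), a value that depends on the prior count because 3 libraries were at 0. It was called against siNT 2 alone, but not against siNT 4 alone (-2.92, adjusted p = 0.053). Growing cells had 1.78, 1.89 and 6.71 CPM with siNT 2 and 0.119, 2.01 and 1.53 CPM with siNT 4. A promoter window of SCN4B is shown because this gene had the lowest level under knockdown relative to its control. The window lies inside the gene, which is annotated from base 118133377 to 118152888. Capitals mark 2 matches to the GC box.
SCN4B promoter, chr11:118145384-118145683, minus strand: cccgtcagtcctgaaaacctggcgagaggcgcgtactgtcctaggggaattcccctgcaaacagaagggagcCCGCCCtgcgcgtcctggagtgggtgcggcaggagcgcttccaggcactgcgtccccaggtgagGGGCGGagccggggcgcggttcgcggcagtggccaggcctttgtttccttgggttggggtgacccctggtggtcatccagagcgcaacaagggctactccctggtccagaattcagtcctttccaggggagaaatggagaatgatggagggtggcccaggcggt

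SCN2A and SCN9A encode sodium channel pores. SCN2A was 2.25, 3.25 and 5.53 CPM in 4OHT_siNT and 0.956, 1.44 and 2.39 CPM in 4OHT_siSMARCA4, and the ranges overlapped slightly. It fell by 1.23 ± 0.34 (2.35-fold lower, adjusted p = 0.0234), a call kept in 15 of 18 fits that left out 1 library (lost without 4OHT_siNT 2-1VM, 4OHT_siSMARCA4 2-3VM or 4-2VM) and lost against siNT 4 alone (-0.87, adjusted p = 0.188). SCN9A was 9.55, 11.49 and 14.2 CPM and 5.88, 6.94 and 9.70 CPM, with slight overlap, and fell by 0.65 ± 0.16 (adjusted p = 0.0151). The call of SCN9A was lost against siNT 4 alone (adjusted p = 0.0923) and with siRNAs of either number alone. SCN8A also lay lower but missed the threshold (-0.82 ± 0.27, adjusted p = 0.0565; 0.0123 without DMSO_siNT 4-2V).

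Genes of calcium-activated potassium channels fell in 3 of 4 cases. KCNMA1, the BK channel pore that joins voltage and calcium sensing and the called gene of highest CPM, was 76.8, 94.4 and 106 CPM in 4OHT_siNT and 46.1, 60.6 and 81.6 CPM in 4OHT_siSMARCA4. The highest knockdown library exceeded the lowest control library, and the log2 fold change was -0.58 ± 0.15 (1.49-fold lower, adjusted p = 0.0145), called against either control siRNA. KCNMB4, its beta subunit, fell from 3.49, 4.07 and 4.57 CPM to 1.04, 2.27 and 2.99 CPM without overlap (-0.89 ± 0.23, adjusted p = 0.0174). KCNN4 fell from 1.80, 2.85 and 3.91 CPM to 1.21, 1.42 and 1.97 CPM with slight overlap (-0.95 ± 0.28, adjusted p = 0.0335), a call kept in 10 of 18 fits that left out 1 library. Against siNT 2 alone neither was called (KCNMB4 adjusted p = 0.0593, KCNN4 0.198). With siRNAs of number 2 alone neither was called either, and with number 4 alone KCNN4 was called and KCNMB4 was not. KCNN2 went the other way with no overlap, 9.53, 12.4 and 13.5 CPM against 15.3, 16.3 and 17.4 CPM, yet missed the threshold (0.47 ± 0.18, adjusted p = 0.107; 0.00194 without DMSO_siNT 4-2V).

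Of the calcium channel genes CACNA2D3 alone was called, which was 7.89, 9.06 and 11.9 CPM in 4OHT_siNT and 3.96, 5.68 and 7.67 CPM in 4OHT_siSMARCA4. All knockdown libraries were lower, and the log2 fold change was -0.71 ± 0.20 (1.64-fold lower, adjusted p = 0.0242). The adjusted p was 0.116 against siNT 4 alone. CACNA2D3 was called in 14 of 18 fits that left out 1 library, and was not called with siRNAs of either number alone. KCNH6 was the 1 gene that rose: 8.13, 10.96 and 18.7 CPM with control siRNA and 17.3, 19.5 and 23.7 CPM with SMARCA4 siRNA. Its log2 fold change was 0.71 ± 0.20 (1.64-fold, adjusted p = 0.0276) with 1 control library in the knockdown range, and the call was lost without any 1 of 7 libraries and against siNT 4 alone (0.47, adjusted p = 0.179).

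**Figure D4:**
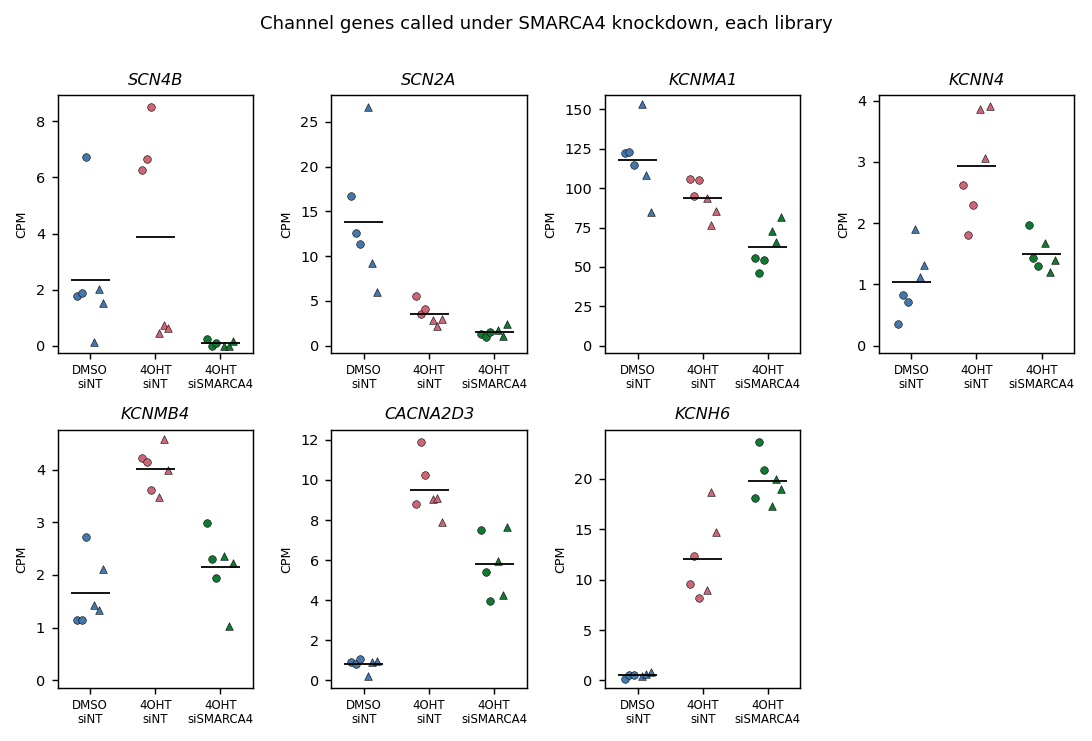
Level in CPM of 7 of the 9 channel genes called under SMARCA4 knockdown, in each library, with circles for siRNA 2, triangles for siRNA 4 and a bar at the mean of 6 libraries. The 3 senescent libraries with siNT 2 carry nearly all SCN4B, at 6.26 to 8.50 CPM, and for KCNMB4 and CACNA2D3 every 4OHT_siSMARCA4 library lies below every 4OHT_siNT library.

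Set against growing cells, 4OHT_siSMARCA4 had 12 channel genes higher and 17 lower of 44 (12 and 16 of 43 without KCNK2), beside 50.5% of all genes called, 23.3% higher and 27.3% lower. The counts include SCN3B, CACNA2D4 and KCNJ8, which met the limit on counts through the groups where they are high. This comparison shares its libraries with both others, so its values are given beside theirs. KCNH6 was called higher in all 3 comparisons, with means of 0.514, 12.1 and 19.8 CPM across the groups, and its log2 fold change against growing cells was 5.24 ± 0.28. SCN2A and SCN9A were called lower in all 3: SCN2A means were 13.8, 3.55 and 1.5 CPM and those of SCN9A 137, 11.7 and 7.43 CPM. CACNA2D3 rose in senescence and fell under knockdown, but still stood 2.77 ± 0.24 log2 units above growing cells.

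KCNMB4 and KCNN4 were also called higher in senescence and lower under knockdown, and against growing cells they were not called (0.37 ± 0.24 and 0.57 ± 0.30). Their means were 1.65, 4.01 and 2.14 CPM for KCNMB4 and 1.04, 2.92 and 1.498 CPM for KCNN4. KCNMA1 and SCN4B were called lower under knockdown and against growing cells (KCNMA1 -0.91 ± 0.15, SCN4B -4.81 ± 1.08), but not in senescence. CACNA1H (0.92 ± 0.29) and CACNG7 (1.39 ± 0.35) were called higher, and SCN8A lower (-0.74 ± 0.27), in this comparison only, and the comparisons were not tested against each other. The value of SCN8A was 0.05 with siRNA 4 alone and its call was lost without any 1 of 6 libraries. CACNA1H was not called within VM sets, within V sets or with siRNA 2 alone (0.60, adjusted p = 0.205), and CACNG7 was not called within V sets (adjusted p = 0.155).

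Several other genes called in senescence were also called between knockdown and growing cells, whereas CACNA1A, KCNIP3, KCNN2 and KCNQ5, all lower in senescence, were not. KCNQ5 was at -1.97 in senescence and at -0.93 ± 0.40 between knockdown and growing cells (adjusted p = 0.0638). As a description, KCNJ8 was 0.162, 0.230 and 0.346 CPM in 4OHT_siSMARCA4 (log2 difference from growing cells -4.79 ± 0.27), and KCNK2 was 0, 0.122 and 0.393 CPM. KCNJ15 was 7.57, 12.4 and 19.4 CPM (3.98 ± 0.24) and KCNG1 109, 148 and 171 CPM (3.22 ± 0.40). KCND1 was 0.236, 0.531 and 1.07 CPM (-2.96 ± 0.41) and KCNAB2 0.956, 1.55 and 2.86 CPM (-2.43 ± 0.38). Levels did not overlap between 4OHT_siSMARCA4 and DMSO_siNT for 18 of 45 genes, 8 higher and 10 lower, 40.9% of the 44 tested beside 29.6% of all genes. The 10 lower include KCNK2, which reached the limit on counts through the growing group alone, and KCNJ8, whose 4OHT libraries had at most 10 counts. The 8 higher include SCN3B and CACNA2D4, which reached it through the 4OHT groups. Within V sets alone 17 genes were called, 6 higher and 11 lower, beside 21.1% of all genes.

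Channel genes were also compared by siRNA number. In a fit with 6 levels, edgeR called none of the 45 genes between siNT 2 and siNT 4 in senescent cells, in growing cells, between siSMARCA4_2 and siSMARCA4_4, or in the difference between the knockdown effects of the numbers. Of 13659 genes tested, 0.0732%, 0.0512%, 0.00732% and 0.0146% were called in these comparisons. At an unadjusted p under 0.05 the counts of channel genes were 6, 13, 8 and 3, and DESeq2 called 2, 3, 0 and 0. The lowest adjusted p in senescent controls was that of SCN4B, higher with siNT 2 by 3.53 ± 0.66 log2 units (adjusted p = 0.056), which DESeq2 called. In growing controls KCND1 was 6.96 ± 1.32 CPM with siNT 2 and 2.48 ± 1.13 CPM with siNT 4 (SD, n = 3), a difference of 1.44 ± 0.33 log2 units (adjusted p = 0.0625), and the genes DESeq2 called included SCN8A and KCNK6. The growing libraries with siNT 4 include 4-2V, where KCNK6 was 68.1 CPM beside 14.8 and 17.3 CPM in 4-2VM and 4-3VM. Without 4-2V edgeR called KCNJ12 alone.

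Between the SMARCA4 siRNAs KCNJ15 had the lowest adjusted p, 0.468, with means of 9.96 ± 2.44 CPM for siSMARCA4_2 and 16.7 ± 3.84 for siSMARCA4_4. By set, KCNJ15 was 12.45, 19.41 and 18.31 CPM in V sets, 7.57 and 12.27 CPM in VM sets and 9.86 CPM in the library without a matching title. The 2 siRNAs hold V and VM sets unequally, so siRNA and set cannot be fully told apart. KCNMA1 was 52.1 ± 5.18 and 73.4 ± 7.99 CPM, beside 102 ± 6.11 and 85.3 ± 8.44 CPM in the controls of the same numbers. The difference between its knockdown effects was -0.73 ± 0.23 log2 units (adjusted p = 0.394; 0.0371 without DMSO_siNT 4-2V). This difference sets siSMARCA4_2 against siNT 2 and siSMARCA4_4 against siNT 4 by number alone, and these are different siRNAs in each arm.

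Other genes that move ions or act on these channels were counted from a list of 72, of which 52 were tested. In senescence 24 rose and 9 fell, 63.5% of those tested beside 52.8% of all genes. Both tested RGK proteins, which hold high-voltage calcium channels back, rose: GEM from 26.2 ± 7.96 to 65.1 ± 2.68 CPM (1.31 ± 0.18) and RRAD from 7.16 ± 2.30 to 28.5 ± 3.85 CPM (2.01 ± 0.23). Calcium handling genes moved in opposite directions, with the endoplasmic reticulum pump ATP2A3 up by 4.18 ± 0.26, the sodium-calcium exchanger SLC8A1 at -3.66 ± 0.30 and the plasma membrane pump ATP2B4 at -1.87 ± 0.21. The calcium-activated chloride channel ANO1 fell (-3.92 ± 0.34), while 7 of 12 chloride channel genes rose. Of 10 TRP channel genes 4 rose, among them TRPM8 (3.63 ± 0.49) and TRPA1 (2.33 ± 0.26), and 4 fell. REST, a repressor of neuronal channel genes, was not called in any comparison (-0.51 ± 0.22 in senescence).

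Under SMARCA4 knockdown 6 of these 52 genes rose (ATP2B1, ATP1B3, CLCN5, CLCN7, LRRC8E and TRPC4) and 1 fell, 13.5% of those tested beside 10.6% of all genes. TRPC4 rose from 0.589 ± 0.195 to 1.93 ± 1.09 CPM (1.68 ± 0.36) and ATP2B1, a plasma membrane calcium pump, from 181 ± 16.97 to 318 ± 34.2 CPM (0.81 ± 0.16). GEM and RRAD were not called under knockdown (0.06 ± 0.18 and 0.04 ± 0.21). Against growing cells 23 of the 52 genes were higher and 10 lower, beside 50.5% of all genes called.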

How the data were processed

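Gene expression was measured by RNA sequencing of polyadenylated RNA. The authors deposited raw counts, per gene and sequencing lane, without normalization; the submitters' processing notes name hg38, STAR 2.7.8a and DESeq2 1.36.0. The counting program, annotation and strand setting are not given in the sources used here. Of 29 samples in the labels 17 matched a column; 1 further column, named for 4OHT_siSMARCA4 siRNA 2 and a set that no such title had, was used as an unlabelled replicate. The other samples were not analysed here, and 0 columns were left unused.

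Lanes were summed. Genes were filtered with filterByExpr (minimum count 10), scaled with TMM and compared by edgeR 4.0.16 quasi-likelihood tests (R 4.3.3) in 1 fit of all 18 libraries. P-values were adjusted by Benjamini-Hochberg over 13136 genes, and calls were made below 0.05. siRNA numbers were compared in a fit with 6 levels and 13659 genes. CPM are on the TMM scale; lengths and overlaps are from GENCODE 44. Standard errors come from the F statistic. SCN4B intervals are exact conditional binomial intervals at 95%.

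The members and gene lists were chosen with earlier results of these data known. Named in full were the 12 genes of largest change among those called in each comparison and the called gene of highest CPM; other members are given briefly. Results of some genes are not reported here, although they enter the counts. Set names were not used to pair libraries in the main fit, and whether they pair them was not stated. Correlations of deviations between same-named sets ran from -0.26 to 0.25. They were 0.17 to 0.25 for 3VM, -0.09 to -0.03 for 2VM and -0.26 for 2V, a set that holds DMSO_siNT 4-2V. Alternatives covered scaling, DESeq2 1.42.0, filters, sets, siRNA numbers, thresholds and each library left out; comparisons against 1 control siRNA, V sets alone and 2 groups within VM sets were chosen after seeing the data. The tests were run on simulated counts with the same dispersion for all genes and no library that stood apart. That check therefore does not cover a library such as DMSO_siNT 4-2V.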

Additional observations from a re-analysis of the deposited data

Results flagged for a closer look

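Among 57 groups of 6 libraries examined (19 channel genes in 3 groups), 4 had a library at an end whose gap to its neighbour took an unusually large share of the group's range, where chance alone marks about 5% of such groups. CACNA2D3 in DMSO_siNT was lowest in library 4-2V, at 0.239 CPM with the next at 0.823, a share of 0.772. KCNAB2 was lowest in the same library, at 1.79 CPM against 8.30, a share of 0.692. KCNG1 in 4OHT_siNT was highest in library 4-2VM, at 124.6 CPM with the next at 103.5 (0.736). KCNJ8 in DMSO_siNT was highest in library 2-1V, at 8.84 CPM with the next at 6.36 (0.731).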

How the results depend on the processing

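The count of channel genes called in senescence ran from 21 to 31 under the alternatives and from 27 to 32 with each library left out, and of all called channel genes in the 3 comparisons, SCN8A against growing cells alone changed sign (-0.74, and 0.0476 with siRNA 4 alone). Values of called genes kept direction and call in 569 cases under alternatives and 1162 with a library left out, and lost the call in 92 and 62. Under knockdown the count of 9 became 14 within VM sets, 18 with the 2 groups alone (where SCN4B was not tested), 16 with 2 groups within VM sets, 1 with siRNA 4 alone (KCNN4), 2 when a change over 2-fold was also required (SCN2A and SCN4B), and 5 to 16 with each library left out: 16 without DMSO_siNT 4-2V and 5 without 4OHT_siSMARCA4 2-3VM or 4-2VM. Against growing cells 29 became 17 within V sets. Between control siRNAs in senescent cells 0 became 2 by DESeq2 and 1 with all genes of at least 1 count, and ranged from 0 to 3 with libraries left out (3 without DMSO_siNT 4-2V). In growing cells 0 became 3 under either of these settings and ranged from 0 to 10 with libraries left out (10 without DMSO_siNT 4-2VM, 3 without 4-3VM, 1 without 4-2V, the last being KCNJ12). The difference of knockdown effects ranged from 0 to 1, the 1 being KCNMA1 without DMSO_siNT 4-2V. The cause of these shifts was not tested.

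With the set name as a replicate block, 1 channel gene was called under knockdown (SCN2A, -1.79, adjusted p = 0.0486) in place of 9. Of all genes 1.62% were called in the block fit, beside 10.6% in the main fit. The block fit left out the library without a matching set title. Whether sets pair the libraries was not stated, so which fit suits the design cannot be told. Depth limited the low genes: SCN4B, KCNK2 and KCNJ8 had at most 10 counts in any library of some groups.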
